A study of Mus musculus with 35 samples.

Results

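The genes of lysosomal enzymes, lysosomal membrane proteins, the proton pump and their regulators were followed in mouse interscapular brown adipose tissue (iBAT), the heat-producing fat pad between the shoulder blades, through 5 days of cold. The members are 36 genes named by symbol, out of 55421 genes in the count table. The rule is a list of names and uses no measured value, although the list was drawn up with earlier results of these data known. They comprise 10 proteases (9 cathepsins and legumain), 8 genes of lipid and sugar breakdown (7 hydrolases and their helper Psap), 6 membrane proteins, 3 transcription factors and 9 subunits or accessory proteins of the proton pump. Whole iBAT was profiled from 35 male C57BL/6J mice aged 9 to 10 weeks, 5 per group, with 1 library per mouse. Controls stayed under colony conditions at 24 °C (room temperature, RT), and the other groups spent 6 hours or 1, 2, 3, 4 or 5 days in an incubator at 6 °C. Cold-exposed mice were caged singly without nesting material, so housing and temperature cannot be told apart. The question was when each member responded to cold, and whether its level differed between mice of the same duration together with macrophage markers.

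Lysosomes are acidic organelles in which cathepsins cut proteins and other hydrolases take apart lipids, glycogen and sugar chains. The vacuolar proton pump (V-ATPase) acidifies them, with a cytosolic V1 sector that splits ATP and a membrane V0 sector that carries protons. TFEB, TFE3 and MITF are related transcription factors known to bind E-box sequences near lysosomal genes, and mTOR, folliculin and the Rag GTPases on the lysosome surface control where TFEB resides. Macrophages are rich in lysosomes, and Ctss and Cd68 are textbook markers of such phagocytes, whereas the proton pump is found in every cell type.

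Each library held 3846016 to 6047247 counts, of which mitochondrial genes took 33.6% to 46.2%. The members together held 0.297% to 0.329% of all counts at RT and up to 0.527% in the cold. Levels are given as CPM (a gene's counts scaled to a common library size, with TMM factors), as mean ± SD over 5 mice unless single mice are listed, and mice are listed in the order of their replicate numbers. The 10 brown adipocyte markers, Ucp1 among them, summed to 15637 CPM or more in every mouse. The library kit reads the 3′ end of each transcript, so levels are compared between groups and not between genes. Ctsd, Ctsl and Glb1 share exon bases with another annotated gene on the same strand, and Ctsa, Ctsb, Ctsl, Ctsz, Lamp1, Hexa, Atp6v0b, Atp6v1e1 and Atp6v1h with 1 or more on the other strand, so part of their counts may have been dropped or assigned elsewhere. Fold changes are log2 values ± SE from edgeR, and a member was called higher or lower at a Benjamini-Hochberg adjusted p below 0.05 over all genes tested. All 6 comparisons with RT share the same 5 control mice. In whole tissue, fewer cells of a type cannot be told apart from less RNA per cell.

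**Figure D1:**
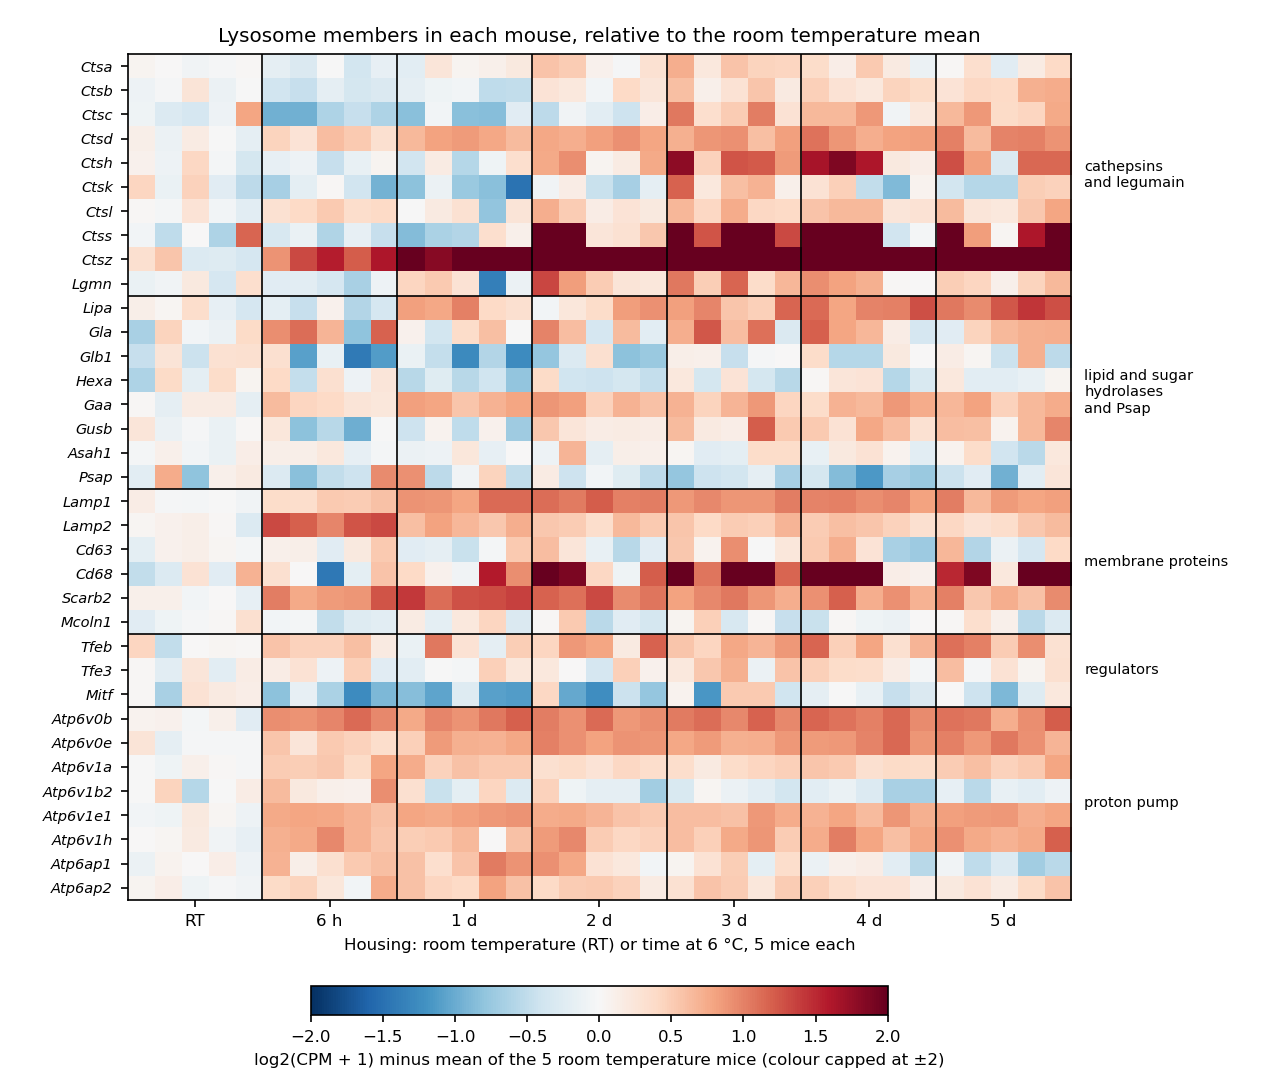
Level of the 35 members that passed the filter in any comparison, in each of 35 mice (columns, 5 per group), as log2(CPM + 1) minus the mean of the 5 RT mice, with rows grouped by role and colour capped at ±2. Lamp1, Scarb2, Ctsd, Ctsz and most proton pump rows are red in all cold groups, whereas Ctss and Cd68 are dark red in some mice from 2 days on and pale in others of the same duration.

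Of the 36 members, 12 were called higher at all 6 durations and 24 higher at 1 or more of them. The former were Ctsd, Ctsz, Gaa, Lamp1, Lamp2, Scarb2, Atp6v0b, Atp6v0e, Atp6v1a, Atp6v1e1, Atp6v1h and Atp6ap2. The matching shares of all genes were not computed, and the 6 comparisons share their controls. These 2 pooled counts are therefore descriptions and cannot be set against a background. Under scaling by library size only, 5 of the 12 kept all 6 calls, namely Ctsz, Lamp1, Scarb2, Atp6v0b and Atp6v1e1. At 6 hours, a rise was called for 14 of 35 tested members and a fall for 3, against 21.5% and 21.0% of all genes tested. The numbers at 1 day were 14 and 4 of 34, with 18.9% and 17.8% of all genes. On day 2, 19 of 34 members rose and 0 fell (16.4% and 14.7% of all genes). On day 3, 23 of 35 rose and 0 fell (18.3% and 15.5%). The numbers of day 4 were 21 risen and 2 fallen members (19.4% and 18.6%), and those of day 5 were 22 and 1 (20.2% and 18.6%). The lower counts after 2 and 3 days were 0 and 1 with DESeq2 and also at an unadjusted p below 0.05. Ctsb, Ctsc and Atp6ap1 were called higher at some durations and lower at others. The median log2 fold change of the members was 0.14 after 6 hours and 0.67 after 3 days, against -0.03 and -0.01 over all genes. Gla, Asah1, Cd63, Mcoln1, Tfe3 and Atp6v0c were called at no duration.

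These counts depended on the scaling. With library size only, the median log2 fold change of all genes shifted to between -0.15 and -0.25 in the 6 comparisons with RT, and the share of calls that were higher fell from between 50.6% and 54.2% to between 25.1% and 35.5%. Under that scaling 8 members were higher and 8 lower after 6 hours, 13 and 7 after 1 day, 11 and 0 after 2 days, 19 and 1 after 3 days, 16 and 2 after 4 days, and 15 and 2 after 5 days. All fold changes below are therefore relative to the bulk of genes.

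Most proton pump genes rose within 6 hours and stayed higher. A rise was called for 7 of the 8 tested at 6 hours and on days 1 and 2, and for 6 on days 3 to 5, with a median log2 fold change of 0.49 after 6 hours and 0.59 after 4 days. A fall was called for 1 on day 4 and for 1 on day 5. Over all genes, 16.4% to 21.5% were called higher at the 6 durations. Atp6v0b, a subunit of the proton-carrying V0 sector, gave the largest fold change of the group after 6 hours and after 4 days. Its level in the RT mice was 69.7, 70.5, 64.8, 71.4 and 57.0 CPM. It was 128, 125, 132, 146 and 130.0 CPM after 6 hours and 149, 143, 134, 149 and 129 CPM after 4 days. Every cold-exposed mouse of the 6 durations therefore lay above every control, at 1.96 times the RT level after 6 hours (0.97 ± 0.09, edgeR adjusted p = 2.75e-07) and 2.11 times after 4 days (1.08 ± 0.09, edgeR adjusted p = 2.51e-07). All 6 cold group means lay between 132 and 141 CPM.

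The other pump subunits called higher had smaller fold changes. Atp6v1e1, a stalk subunit of V1, went from 140.1 ± 12.5 CPM at RT to 231 ± 12.5 after 6 hours and 246 ± 9.35 after 5 days (0.81 ± 0.09, edgeR adjusted p = 2.40e-06). Atp6v1a, the catalytic subunit of V1, went from 109 ± 5.48 to 161 ± 17.4 CPM after 6 hours (0.54 ± 0.09, edgeR adjusted p = 1.87e-04) and was at 139 ± 4.99 CPM after 2 days, its lowest mean in the cold. Atp6v1a was not called with library size only after 2 days (0.11) and 3 days (0.24), nor Atp6v1h after 1 day (0.26). Neither Atp6v1e1 nor Atp6v1a had a cold-exposed mouse below the highest control. Atp6v1h, a regulatory subunit of V1, changed by 0.73 ± 0.10 after 6 hours and 0.89 ± 0.12 after 5 days (edgeR adjusted p = 1.19e-05). Atp6v0e, a small V0 subunit, built up more slowly, with fold changes of 0.41 ± 0.10 after 6 hours, 0.70 ± 0.11 after 1 day and 0.95 ± 0.10 after 4 days (edgeR adjusted p = 2.15e-06). Atp6ap2, an accessory protein also known as the prorenin receptor, was higher at all 6 durations, with fold changes between 0.31 ± 0.11 after 4 days and 0.58 ± 0.11 after 1 day. Its calls after 6 hours, 4 days and 5 days were lost without any 1 of 6, 4 and 5 of the 10 mice. Some endothelial and erythroid markers were also higher over these times, but not the markers of all cell types. Of 6 stromal markers 1 was higher and 3 lower after 1 day. Of 12 general macrophage markers 2 were higher and 3 lower after 6 hours. The 6 endothelial markers summed to 264 to 325 CPM at RT, 442 to 551 after 6 hours and 524 to 614 after 1 day (2 of 6 higher and 1 lower after 6 hours, 4 of 5 higher after 1 day). Of the 5 erythroid markers 3 were higher after 6 hours and 4 after 1 day, and their sums were 1826 to 2344, 2219 to 3986 and 2499.5 to 4516 CPM. Their part in the pump values was not tested. With library size only, Atp6v0e, Atp6ap1 and Atp6ap2 were not called after 6 hours, and no pump gene called higher at 6 hours turned its direction.

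Atp6ap1, the other accessory protein of the pump, rose and then fell. The RT mice had 27.5, 31.5, 30.1, 33.0 and 27.8 CPM. After 1 day the level was 45.3, 38.0, 44.7, 62.8 and 56.6 CPM, above all controls. After 5 days it was 28.4, 20.7, 24.7, 18.1 and 20.4 CPM, with only 1 mouse inside the range of the controls. The fold change was 0.45 ± 0.12 after 6 hours (edgeR adjusted p = 0.00533), 0.72 ± 0.13 after 1 day (adjusted p = 5.20e-04) and -0.43 ± 0.13 after 5 days (adjusted p = 0.0158). Without the cold 5 days replicate 4 mouse, the 5-day call was lost (adjusted p = 0.051), and the call after 2 days (0.49 ± 0.17) was lost without any 1 of 7 mice. Atp6v1b2, the V1 subunit that pairs with Atp6v1a, was at 70.3 ± 17.0 CPM at RT, 92.9 ± 25.9 after 6 hours and 52.8 ± 8.93 after 4 days, and only the last was called (lower, -0.41 ± 0.16, edgeR adjusted p = 0.0496). That call was lost without any 1 of 8 mice and with RLE size factors. Atp6v0c, the subunit that forms the V0 ring, had 0 to 5 counts per mouse and 51 in all 35 mice, failed the filter and was not tested. Its annotated processed pseudogenes Atp6v0c-ps1 and Atp6v0c-ps2 are near-copies whose reads the counting could split, so its level is uncertain.

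Pump genes outside the members were counted too. Of 14 such genes, 8 passed the filter after 6 hours, and 5 of them were higher and 0 lower (21.5% and 21.0% of all genes). On day 4, a rise was called for 6 of 8 and a fall for 0 (19.4% and 18.6% of all genes). The median log2 fold changes were 0.53 after 6 hours and 0.55 after 4 days. Atp6v1d, a V1 subunit, led after 6 hours (0.95 ± 0.10, 189 ± 18.0 against 96.0 ± 9.46 CPM). Atp6v0a2, a V0 subunit, rose by 0.64 ± 0.12 after 6 hours and 1.14 ± 0.13 after 4 days, and Atp6v0d1, another V0 subunit, by 0.99 ± 0.11 after 4 days.

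**Figure D2:**
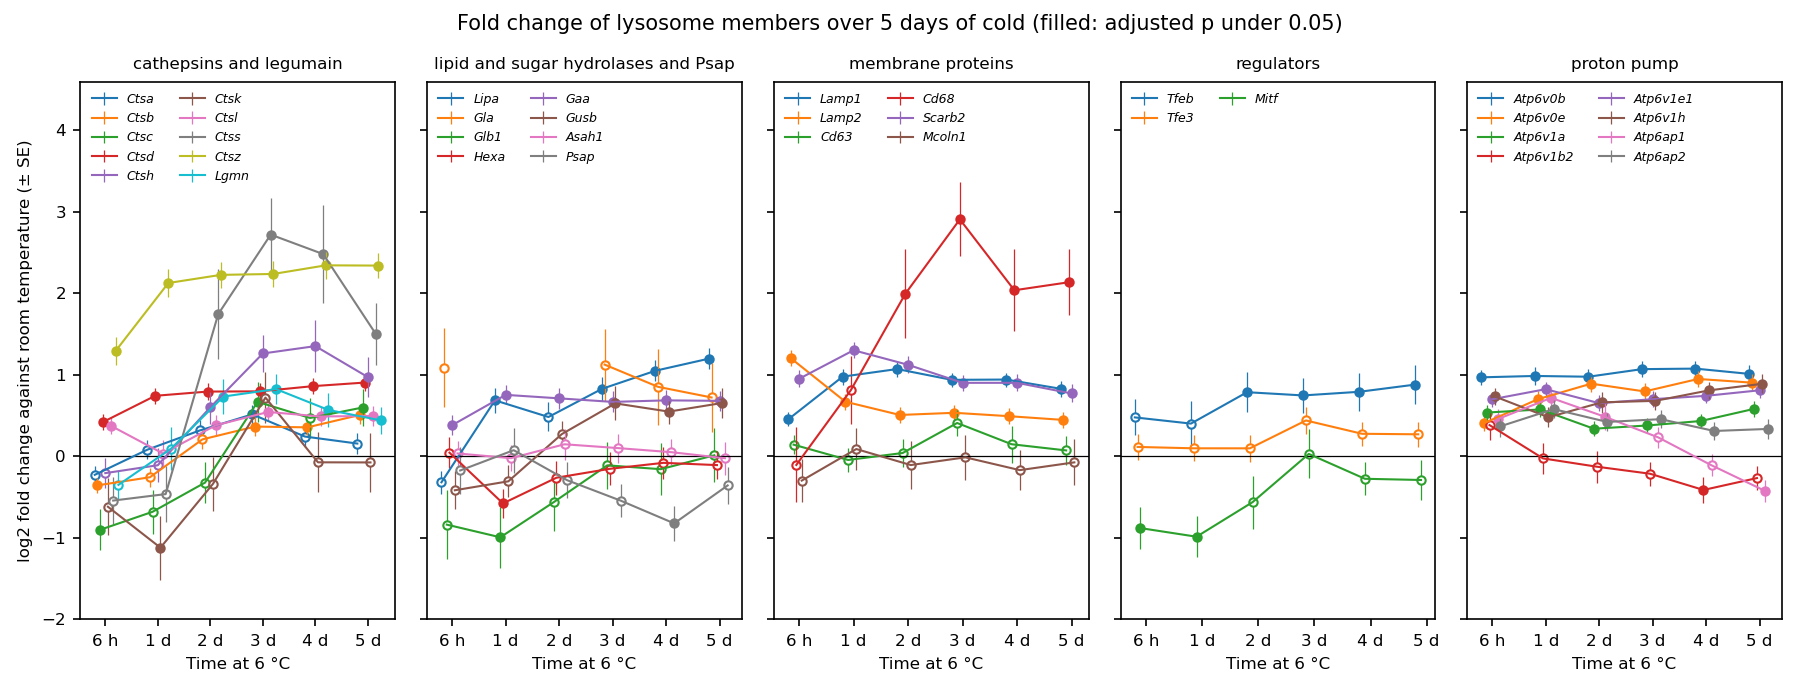
Log2 fold change against RT (± SE, edgeR) of each tested member at 6 durations of cold, in 1 panel per role, with filled points for an adjusted p below 0.05. Apart from Atp6v1b2 and Atp6ap1, proton pump genes, Lamp1, Scarb2, Ctsd and Gaa are above 0 from 6 hours on, whereas Ctss, Ctsh, Cd68 and Lgmn are called higher only from 2 days.

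Among the membrane proteins, Lamp1, Lamp2 and Scarb2 rose within 6 hours, and the median log2 fold change of the 6 genes was 0.30 after 6 hours and 0.70 after 4 days. LAMP1 and LAMP2 are the heavily glycosylated proteins that line the lysosomal membrane. Lamp2 gave the largest fold change of the group after 6 hours. Levels at RT were 100.5, 104, 106, 99.8 and 80.8 CPM, and the mice after 6 hours had 245, 226, 194, 235 and 246 CPM. After 4 days the level was 140.2, 149, 145, 135 and 123 CPM, between both groups and without overlap with either. The 6-hour level was 2.30 times that of RT (1.20 ± 0.10, edgeR adjusted p = 5.22e-08), and the fold change was 0.67 ± 0.10 after 1 day and 0.45 ± 0.10 after 5 days. Lamp2 was not called with library size only after 2 days (0.285) and 5 days (0.22).

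Lamp1 went from 412 ± 24.7 CPM at RT to 571 ± 39.5 after 6 hours, 870.5 ± 50.7 after 2 days and 734 ± 70.8 after 5 days. Its fold change was 0.45 ± 0.09 after 6 hours (edgeR adjusted p = 3.97e-04) and 1.07 ± 0.10 after 2 days (adjusted p = 1.39e-06). Scarb2, which encodes the receptor that delivers glucocerebrosidase to lysosomes, went from 91.5 ± 7.34 CPM to 179 ± 25.6 after 6 hours and 226 ± 17.4 after 1 day, its highest mean (1.30 ± 0.10, edgeR adjusted p = 6.29e-08). All 30 cold-exposed mice lay above all controls for Lamp1, Lamp2 and Scarb2. Mcoln1, the lysosomal calcium channel TRPML1, stayed between 2.99 and 3.86 CPM in the group means and was called at no duration. Cd63, a tetraspanin of late endosomes, had group means from 98.7 to 134 CPM and was called at no duration either.

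Cd68, a glycoprotein of phagocyte lysosomes, was called only from 2 days on and varied between mice of a group. The 5 controls had 1.36, 1.75, 3.06, 1.81 and 4.37 CPM. After 3 days the level was 28.1, 5.97, 23.8, 27.6 and 6.44 CPM, with every mouse above the controls. After 4 days it was 17.0, 13.6, 14.7, 2.61 and 2.53 CPM. At 4 days 3 mice were above all controls and the other 2 inside their range. The fold change was -0.11 ± 0.46 after 6 hours (not called), 1.99 ± 0.55 after 2 days (edgeR adjusted p = 0.0117), 2.91 ± 0.45 after 3 days (adjusted p = 1.29e-04) and 2.04 ± 0.50 after 4 days (adjusted p = 0.00431). Without the cold 2 days replicate 1 mouse, the 2-day value was 1.22 and not called.

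**Figure D3:**
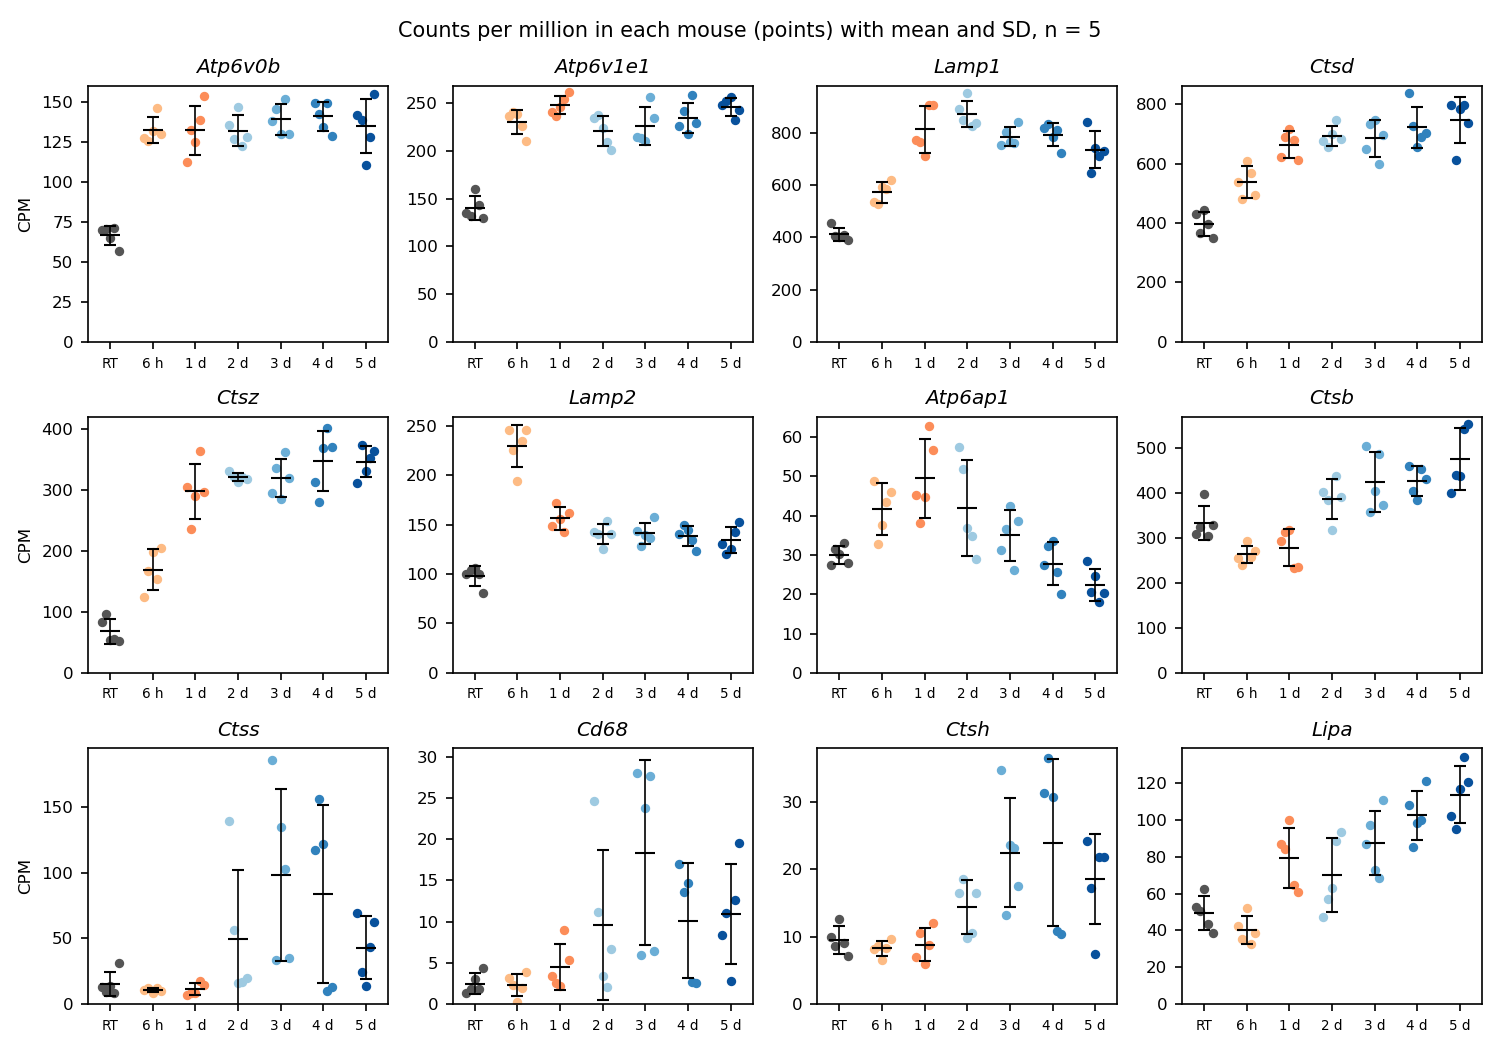
CPM of 12 members in each mouse, with mean and SD of 5 mice per group (linear axes from 0). Atp6v0b and Atp6v1e1 step up at 6 hours and stay, Lamp2 is highest at 6 hours, Atp6ap1 rises and falls, and the spread of Ctss, Cd68 and Ctsh within a group widens from 2 days.

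Some cathepsins rose within 6 hours and others were called only from 2 or 3 days. Of 10, 3 were higher and 2 lower after 6 hours and 9 higher and 0 lower after 3 days, with medians of -0.29 and 0.76 on the log2 scale. Over all genes the shares were 21.5% and 21.0% after 6 hours and 18.3% and 15.5% after 3 days. The 6-hour counts of the 10 were thus near those of all genes. Ctsz (cathepsin Z, a carboxypeptidase) gave the largest fold change of any member after 6 hours. Its level in the RT mice was 82.9, 97.2, 54.8, 55.1 and 52.0 CPM. It was 124, 167, 199, 154 and 205 CPM after 6 hours and 314, 281, 369.6, 403 and 371 CPM after 4 days. The groups did not overlap at any duration, and the level reached 2.45 times RT after 6 hours (1.29 ± 0.17, edgeR adjusted p = 1.02e-05), 4.37 times after 1 day and 5.06 times after 5 days (2.34 ± 0.16, edgeR adjusted p = 4.95e-09). Ctsd, the main aspartic protease of lysosomes, rose from 397 ± 41.5 CPM to 538 ± 53.9 after 6 hours and 746 ± 78.1 after 5 days, with fold changes of 0.42 ± 0.10 (edgeR adjusted p = 0.00237) and 0.90 ± 0.11 (adjusted p = 3.18e-06). Ctsl, a broadly acting cysteine protease, was higher at all durations but 1 day, by 0.38 ± 0.10 after 6 hours and 0.54 ± 0.11 after 3 days (adjusted p = 0.00143). Its 2-day call was lost without any 1 of 6 mice, and with library size only neither Ctsd nor Ctsl was called after 6 hours.

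Ctsb and Ctsc fell first. Ctsb (cathepsin B) was at 309, 324, 397, 304 and 329 CPM in the RT mice. It was 254, 239, 292, 258 and 272 CPM after 6 hours, below all controls, and 399, 439, 437, 542 and 552 CPM after 5 days, above all of them. The fold change went from -0.36 ± 0.10 after 6 hours (edgeR adjusted p = 0.00572) to 0.35 ± 0.10 after 4 days (adjusted p = 0.00832) and 0.51 ± 0.11 after 5 days (adjusted p = 0.00194). Ctsc, which activates serine proteases of immune cells, was at 9.57 ± 3.96 CPM at RT, 5.19 ± 0.969 after 6 hours (lower, -0.90 ± 0.25, edgeR adjusted p = 0.0078) and 15.2 ± 4.21 after 3 days (higher, 0.67 ± 0.24, edgeR adjusted p = 0.0439). The rises of Ctsb after 3 days and of Ctsc after 3 and 5 days were lost without any 1 of 5, 6 and 7 mice. Without room temperature replicate 5 the values of Ctsc were -0.60 after 6 hours and 0.90 after 5 days.

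Ctss, the cathepsin of antigen-presenting cells, gave the largest fold change of the proteases after 4 days. The RT mice had 12.8, 9.15, 13.5, 8.41 and 31.1 CPM, and the mice after 6 hours had 10.5, 12.0, 8.52, 11.8 and 9.47 CPM. After 3 days the level was 185, 33.5, 134, 103 and 34.8 CPM. After 4 days it was 117, 156, 122, 10.0 and 13.01 CPM. All 5 mice exceeded the controls after 3 days, whereas after 4 days 3 mice did so and the other 2 were inside the range of the controls. The fold change was -0.54 ± 0.29 after 6 hours (not called), 2.72 ± 0.45 after 3 days (edgeR adjusted p = 2.17e-04), 2.48 ± 0.61 after 4 days (adjusted p = 0.00399) and 1.502 ± 0.38 after 5 days (adjusted p = 0.00445). After 2 days it was 1.74 ± 0.55 (adjusted p = 0.024) and 0.85 without the cold 2 days replicate 1 mouse, and that call was lost without any 1 of 4 mice.

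Ctsh, an aminopeptidase of the same family, was at 9.45 ± 2.06 CPM at RT and 22.4 ± 8.08 after 3 days (1.26 ± 0.23, edgeR adjusted p = 4.25e-04), and it was higher from 2 to 5 days. Lgmn (legumain, which cleaves after asparagine and processes cathepsins) was higher over the same days, by 0.73 ± 0.22 after 2 days and 0.82 ± 0.19 after 3 days (adjusted p = 0.00268). The 2-day call of Ctsh and the 4-day and 5-day calls of Lgmn were each lost without any 1 of 6 or 7 mice, and the 2-day call of Lgmn was lost without room temperature replicate 4 or cold 2 days replicate 1 (adjusted p = 0.056 to 0.059), with a value of 0.48 in the latter case. Ctsa, the protective protein of other lysosomal enzymes, was called only after 3 days (0.51 ± 0.12, edgeR adjusted p = 0.00291). Ctsk, best known from bone resorption, was called lower after 1 day (-1.12 ± 0.39, edgeR adjusted p = 0.0346) at 1.45 ± 0.824 against 3.21 ± 1.24 CPM, and that call was lost without any 1 of 6 mice.

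Of the 8 genes of lipid and sugar breakdown, 1 was higher after 6 hours and 3 after 3, 4 and 5 days (21.5%, 18.3%, 19.4% and 20.2% of all genes), with medians of -0.07 after 6 hours and 0.30 after 4 days on the log2 scale. Gaa, the enzyme that degrades glycogen in lysosomes, was the one called after 6 hours. Levels at RT were 18.6, 16.0, 20.5, 20.5 and 16.0 CPM, and the mice after 6 hours had 28.9, 24.8, 24.2, 22.0 and 21.4 CPM. After 4 days the level was 23.7, 30.1, 28.9, 34.0 and 31.1 CPM. No cold-exposed mouse of the 6 durations overlapped with the controls, and the fold change was 0.38 ± 0.13 after 6 hours (edgeR adjusted p = 0.0216) and 0.75 ± 0.12 after 1 day (adjusted p = 9.63e-05). The 6-hour call was lost without room temperature replicate 2, room temperature replicate 5 or cold 6 hours replicate 1 (adjusted p = 0.051 to 0.054), and with library size only.

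Lipa, the acid lipase that releases fatty acids from lipid droplets delivered to lysosomes, gave the largest fold change of the group after 4 days. The 5 controls had 52.9, 50.4, 62.4, 43.7 and 38.4 CPM, and the mice after 6 hours had 42.6, 35.2, 52.2, 32.4 and 38.5 CPM. After 4 days the level was 108, 85.3, 98.2, 99.9 and 121 CPM, above all controls. The fold change was -0.32 ± 0.14 after 6 hours (not called), 0.69 ± 0.15 after 1 day (edgeR adjusted p = 0.00198), 1.05 ± 0.13 after 4 days (adjusted p = 8.72e-06) and 1.20 ± 0.13 after 5 days (adjusted p = 1.25e-06). Gusb (beta-glucuronidase) was higher from 3 days on, by 0.55 ± 0.16 after 4 days (adjusted p = 0.0112), and its 3-day call was lost without room temperature replicate 2, room temperature replicate 4 or cold 3 days replicate 4 (0.42 without the last).

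The remaining genes of this group were lower or not called. Glb1 (beta-galactosidase) and Hexa (the alpha subunit of beta-hexosaminidase) were lower after 1 day only, with log2 fold changes of -0.9959 ± 0.37 (edgeR adjusted p = 0.0455) and -0.58 ± 0.18 (adjusted p = 0.0196). Both calls were lost when single mice were left out (any 1 of 7 and of 3). Psap, the precursor of the saposins that present lipids to these enzymes, was at 364 ± 140.0 CPM at RT and 206 ± 41.5 after 4 days (lower, -0.83 ± 0.21, edgeR adjusted p = 0.00557), with overlap between the groups. Gla (alpha-galactosidase A) had 1.25 to 2.69 CPM in the group means, with fold changes between 0.72 ± 0.42 and 1.09 ± 0.49 at the 4 durations where it was tested. Asah1 (acid ceramidase) had fold changes between -0.02 ± 0.16 and 0.15 ± 0.19.

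Lysosomal genes outside the members were more often lower than higher after 6 hours. Of 50 such genes, 46 were tested after 6 hours, when 6 were higher and 18 lower, and after 4 days, when 10 were higher and 10 lower. Over all genes the shares were 21.5% and 21.0% after 6 hours and 19.4% and 18.6% after 4 days, so the 4-day counts were near those of all genes. Their median log2 fold change was -0.24 after 6 hours and 0.02 after 4 days. Naglu, an enzyme of heparan sulfate degradation, and Naaa, an acid amidase, changed by -1.24 ± 0.26 and -1.20 ± 0.26 after 6 hours. Gnptg, a subunit of the enzyme that tags hydrolases for transport to lysosomes, rose by 0.89 ± 0.20 after 6 hours and 1.11 ± 0.18 after 4 days. After 4 days Lgals3bp, a secreted glycoprotein, had risen by 2.39 ± 0.37. Its level then differed widely between mice (98.7 ± 60.5 CPM, against 18.9 ± 3.81 at RT). Ctso and Pla2g15, a protease and a phospholipase, changed by -1.56 ± 0.26 and -0.94 ± 0.19 after 4 days.

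Promoter sequences were searched for the E-box that TFEB-type factors bind. RefSeq windows of 300 bases (250 before to 50 after a start site, build GRCm38.p6) were matched for 31 of 36 members. The letters CACGTG were found in the windows of 12 of these 31 genes (38.7%), against 8.09% of 27025 genes with a window. TCACGTG, read on either strand and always overlapping the shorter motif, was found in 11 members (35.5%, against 4.29%), and TCACGTGA in 6 (19.4%, against 1.13%). The 12 members were Ctsa, Ctsd, Ctsl, Lgmn, Gaa, Gla, Glb1, Lamp1, Mcoln1, Atp6v0b, Atp6v0e and Atp6v1a. The Lgmn window with CACGTG did not match the sequence of an annotated Lgmn transcript. Its other window, which did, has no CACGTG. Of the 13 members with a window that were called higher at 6 hours, 7 had CACGTG. It was in 2 of the 8 first called later and in 3 of the 10 never called higher. These matches are descriptions of letters in a window and were not tested.

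The windows of 7 members are printed 5′ to 3′ on the gene's strand, with capitals for each CACGTG and, where present, the T before it or the A after it (the same T on the other strand). Lamp1 (chr8:13158911-13159210, plus strand), Atp6v0b (chr4:117887280-117887579, minus), Ctsd (chr7:142387778-142388077, minus) and Atp6v1a (chr16:44139210-44139509, minus) are shown because they rose at 6 hours and hold the motif. Mcoln1 (chr8:3500269-3500568, plus) holds it and was never called. Ctsz (chr2:174438990-174439289, minus) and Ctss (chr3:95526536-95526835, plus) gave the largest fold changes of the proteases after 6 hours and after 4 days and have no CACGTG in this window.
Lamp1: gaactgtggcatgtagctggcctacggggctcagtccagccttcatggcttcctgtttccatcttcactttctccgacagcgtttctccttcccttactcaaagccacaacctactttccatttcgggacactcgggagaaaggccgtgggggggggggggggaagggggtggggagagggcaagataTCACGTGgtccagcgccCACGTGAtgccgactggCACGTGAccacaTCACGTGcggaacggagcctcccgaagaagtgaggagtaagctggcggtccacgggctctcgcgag
Atp6v0b: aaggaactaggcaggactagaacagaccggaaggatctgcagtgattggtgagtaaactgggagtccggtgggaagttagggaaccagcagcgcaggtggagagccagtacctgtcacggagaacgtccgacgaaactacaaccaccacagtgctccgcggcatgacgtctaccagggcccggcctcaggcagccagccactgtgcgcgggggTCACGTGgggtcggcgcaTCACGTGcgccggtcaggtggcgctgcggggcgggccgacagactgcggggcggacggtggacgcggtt
Ctsd: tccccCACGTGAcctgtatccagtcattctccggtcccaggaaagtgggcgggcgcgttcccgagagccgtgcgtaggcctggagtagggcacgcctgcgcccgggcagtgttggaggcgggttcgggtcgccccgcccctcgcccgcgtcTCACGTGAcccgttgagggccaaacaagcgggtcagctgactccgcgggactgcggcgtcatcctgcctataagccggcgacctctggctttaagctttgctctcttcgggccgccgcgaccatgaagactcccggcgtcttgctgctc
Atp6v1a: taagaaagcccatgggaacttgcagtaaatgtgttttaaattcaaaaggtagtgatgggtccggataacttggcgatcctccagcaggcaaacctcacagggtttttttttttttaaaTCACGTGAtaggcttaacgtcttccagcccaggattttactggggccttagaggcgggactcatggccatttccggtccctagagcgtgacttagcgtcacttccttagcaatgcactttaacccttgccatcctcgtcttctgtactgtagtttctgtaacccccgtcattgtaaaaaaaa
Mcoln1: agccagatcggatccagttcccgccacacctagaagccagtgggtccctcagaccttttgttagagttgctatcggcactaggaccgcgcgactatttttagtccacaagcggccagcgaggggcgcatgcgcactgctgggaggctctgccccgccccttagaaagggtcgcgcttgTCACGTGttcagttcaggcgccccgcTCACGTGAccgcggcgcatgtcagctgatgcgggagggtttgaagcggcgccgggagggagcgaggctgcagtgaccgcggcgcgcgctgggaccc
Ctsz: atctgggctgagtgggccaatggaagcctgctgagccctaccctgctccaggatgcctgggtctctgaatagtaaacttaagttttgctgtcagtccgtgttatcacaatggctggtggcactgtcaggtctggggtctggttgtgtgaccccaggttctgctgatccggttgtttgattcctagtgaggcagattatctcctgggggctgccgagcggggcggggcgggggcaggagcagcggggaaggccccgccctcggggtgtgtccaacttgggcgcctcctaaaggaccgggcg
Ctss: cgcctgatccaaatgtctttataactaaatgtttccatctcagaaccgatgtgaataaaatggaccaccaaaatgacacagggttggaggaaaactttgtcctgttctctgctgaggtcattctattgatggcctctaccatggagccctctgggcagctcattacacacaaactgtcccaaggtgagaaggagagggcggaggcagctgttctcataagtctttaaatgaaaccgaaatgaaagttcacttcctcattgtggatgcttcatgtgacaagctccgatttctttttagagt

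Lamp1 had 4 E-boxes, at 61, 45, 28 and 15 bases before its start site. Atp6v0b had 2, at 36 and 18 bases before it, Mcoln1 2, at 71 and 45 bases, Ctsd 2, at 245 and 98 bases, and Atp6v1a 1, at 131 bases. Lamp1 and Atp6v0b rose by 0.45 ± 0.09 and 0.97 ± 0.09 after 6 hours, while Mcoln1, with the same letters, had -0.30 ± 0.26 and was not called. Mcoln1 had only 15 to 26 counts per mouse at RT and 10 to 16 after 6 hours, so its value is imprecise. The counts of Lamp1 were 1844 to 2474 and 2031 to 3331.

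Of the regulators, Tfeb was called higher, Mitf lower and Tfe3 at no duration. Tfeb was the only one called after 4 days. The RT mice had 6.78, 3.12, 4.80, 4.95 and 4.91 CPM, and the mice after 4 days had 12.0, 7.08, 9.01, 6.23 and 8.31 CPM, with 1 of them inside the range of the controls. The fold change was 0.48 ± 0.22 after 6 hours (edgeR adjusted p = 0.0905), 0.40 ± 0.28 after 1 day (adjusted p = 0.286), 0.79 ± 0.25 after 2 days (adjusted p = 0.0245), 0.75 ± 0.21 after 3 days (adjusted p = 0.0132), 0.79 ± 0.23 after 4 days (adjusted p = 0.0129) and 0.88 ± 0.24 after 5 days (adjusted p = 0.00684). Tfeb was thus called higher from 2 days on. The 2-day call was lost without any 1 of 4 mice, and the 6-hour value was called (adjusted p = 0.038) without room temperature replicate 1, the control with the highest Tfeb level.

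Mitf was the only regulator called after 6 hours, and it was lower. Levels at RT were 8.33, 4.87, 10.3, 9.40 and 9.10 CPM, and the mice after 6 hours had 4.20, 7.18, 4.93, 2.84 and 3.90 CPM. Of the cold-exposed mice, 3 lay below all controls. The fold change was -0.88 ± 0.25 after 6 hours (edgeR adjusted p = 0.00963), -0.99 ± 0.25 after 1 day (adjusted p = 0.00603), -0.56 ± 0.33 after 2 days (adjusted p = 0.206), 0.03 ± 0.30 after 3 days (adjusted p = 0.955), -0.28 ± 0.21 after 4 days (adjusted p = 0.307) and -0.29 ± 0.25 after 5 days (adjusted p = 0.369). Without the cold 2 days replicate 1 mouse, the 2-day value was -1.06 and called (adjusted p = 0.0077).

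Tfe3 was not called at any duration. Its fold changes were 0.11 ± 0.16, 0.10 ± 0.16, 0.10 ± 0.17, 0.44 ± 0.17, 0.27 ± 0.15 and 0.27 ± 0.16 from 6 hours to 5 days, with the lowest edgeR adjusted p after 3 days (0.0562). Without room temperature replicate 3 or cold 3 days replicate 4, the 3-day value passed the threshold (adjusted p = 0.044 and 0.012).

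Genes of the signalling that controls TFEB had medians of 0.33 after 6 hours and 0.24 after 4 days on the log2 scale. Of 22 such genes, 21 were tested after 6 hours and 4 days, of which 6 rose and 0 fell after 6 hours and 8 rose and 1 fell after 4 days, with 11 risen and 0 fallen after 5 days. The shares over all genes were 21.5% higher and 21.0% lower after 6 hours, 19.4% and 18.6% after 4 days and 20.2% and 18.6% after 5 days, so the 6-hour share of risen genes was near that of all genes. Flcn (folliculin) went from 30.7 ± 5.50 CPM at RT to 98.2 ± 23.9 after 6 hours (1.66 ± 0.16, edgeR adjusted p = 2.61e-07). Rragc, a Rag GTPase, rose by 1.10 ± 0.11 after 6 hours. After 4 days Rragd, another Rag GTPase, had risen by 1.31 ± 0.31 and Mtor, the kinase itself, by 1.10 ± 0.15, while Rraga changed by -0.47 ± 0.16. Of 25 autophagy genes, 23 were tested, with 5 higher and 4 lower after 6 hours and 5 higher and 3 lower after 4 days, shares near those of all genes, and medians of -0.04 and 0.10. Sqstm1, a cargo receptor, and Atg12, a ubiquitin-like conjugate, rose by 0.57 ± 0.12 and 0.51 ± 0.11 after 6 hours, and Atg12 and Gabarapl2 by 0.76 ± 0.09 and 0.60 ± 0.14 after 4 days. Wipi1, a phosphoinositide-binding autophagy protein, changed by -0.70 ± 0.15 after 6 hours. Bnip3, a mitophagy receptor, changed by -0.64 ± 0.14 after 6 hours and -0.82 ± 0.11 after 4 days, and Vps11, a tethering factor of lysosomes, by -0.47 ± 0.18.

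The course was also compared within the cold, without the controls. Between 6 hours and 4 days, 13 of 35 members rose and 4 fell, against 18.3% and 16.7% of all genes tested. Of the 10 proteases, 8 were higher at 4 days than at 6 hours, and of the 8 tested pump genes 1 was. Ctss (3.03 ± 0.56), Cd68 (2.15 ± 0.53), Ctsh (1.57 ± 0.30), Lipa (1.38 ± 0.13) and Ctsc (1.38 ± 0.22) gave the largest rises, and Ctsz rose by 1.06 ± 0.13 on top of its early change (edgeR adjusted p = 6.40e-06). The others were Gusb (0.98 ± 0.23), Lgmn (0.93 ± 0.20), Ctsb (0.72 ± 0.09), Atp6v0e (0.55 ± 0.09), Lamp1 (0.50 ± 0.09), Ctsa (0.48 ± 0.14) and Ctsd (0.45 ± 0.10). Lamp2 (-0.70 ± 0.09), Atp6v1b2 (-0.79 ± 0.16), Psap (-0.64 ± 0.24) and Atp6ap1 (-0.56 ± 0.14) fell. The fall of Psap (adjusted p = 0.0484) was lost without any 1 of 6 mice, and without the cold 6 hours replicate 5 mouse the value was -0.22. Between 3 and 5 days, 0 of 35 members were higher and 1 lower, against 1.02% and 0.892% of all genes. The 1 was Atp6ap1 (-0.66 ± 0.16, edgeR adjusted p = 0.04), and this call was lost without any 1 of 8 mice. With DESeq2 0 members were higher too, and at an unadjusted p below 0.05 there was 1 higher (Lipa) and 5 lower (Atp6ap1, Ctsa, Ctsk, Ctss and Lgmn).

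Mice of the same duration differed in their macrophage markers, and some members differed with them. A score was taken as the mean log2 CPM of 16 general macrophage markers (among them Adgre1, Csf1r, Lyz2 and the C1q genes), and none of the 36 members is in it. Its group mean was 2.90 ± 0.54 (SD) at RT and was lowest after 1 day, at 2.56 ± 0.16. On day 3 it was 3.48 ± 0.54, the highest, and on day 4 it was 3.29 ± 0.70. Single mice ranged from 2.53 to 3.83 at RT and from 2.37 to 3.84 after 4 days, so the range within these groups exceeded the difference between their means. Each gene was then fitted on this score within durations over all 35 mice, which gives a slope in log2 units per unit of score.

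A positive slope was called for 8 of 35 members and a negative one for 0, against 4.44% and 2.45% of all genes tested. Ctss had the steepest slope at 2.37 ± 0.17 (edgeR adjusted p = 1.08e-12), followed by Cd68 at 1.99 ± 0.24 (adjusted p = 2.23e-07) and Ctsh at 0.91 ± 0.15 (adjusted p = 3.07e-05). Because Ctss and Cd68 are themselves phagocyte markers, their positive slopes on a macrophage score are no independent finding. Cd63 (0.62 ± 0.14), Ctsc (0.59 ± 0.12), Lgmn (0.54 ± 0.14), Hexa (0.40 ± 0.12) and Ctsa (0.26 ± 0.08) completed the list. This count depended on the scaling. With library size only 22 members were positive, 6 of the 8 pump genes among them, as were 18.6% of all genes, whose median slope moved to 0.15. The TMM factors of the 4-day mice were 1.05 to 1.14 in the 3 with high scores and 0.92 to 0.93 in the other 2. With TMM none of the 8 pump genes was called, with slopes between -0.05 ± 0.06 and 0.16 ± 0.12. The slopes of Lamp1 (0.00 ± 0.06), Lamp2 (0.02 ± 0.06), Scarb2 (0.01 ± 0.07), Ctsd (-0.04 ± 0.06) and Gaa (0.02 ± 0.08) missed the threshold too. Lipa (-0.29 ± 0.10, adjusted p = 0.0822) and Ctsz (-0.20 ± 0.09, adjusted p = 0.177) had negative slopes that were not called. Cd63 and Hexa, which were called higher at no duration, thus had positive slopes between mice. The difference between the slopes of 2 members was not tested.

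The 4-day mice show the relation. Replicates 1, 2 and 3, with scores of 3.79, 3.84 and 3.74, had 117, 156 and 122 CPM of Ctss, and replicates 4 and 5, with scores of 2.37 and 2.69, had 10.0 and 13.01 CPM. In the same order Atp6v0b was at 149, 143, 134, 149 and 129 CPM, with no such split. At RT the replicate 5 mouse stood apart with a score of 3.83, while the other controls reached 2.91 at most, and it had 31.1 CPM of Ctss, above the 8.41 to 13.5 CPM of the other 4.

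**Figure D4:**
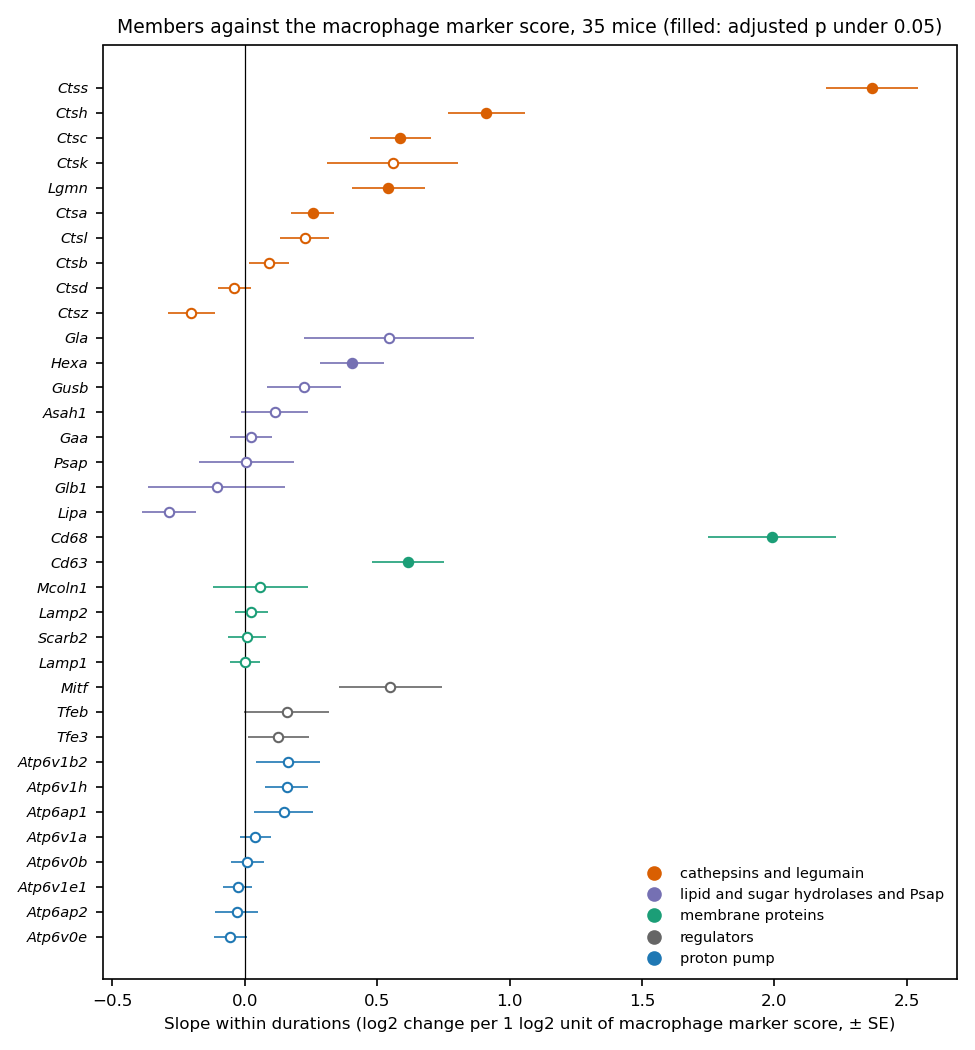
Slope of each tested member on the macrophage marker score within durations (log2 units per unit of score ± SE, 35 mice), by role, with filled points for an adjusted p below 0.05. Ctss and Cd68 stand at 2.37 and 1.99, and the 8 proton pump genes lie between -0.05 and 0.16 with TMM scaling, whereas 6 of them were called positive with library size only.

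**Figure D5:**
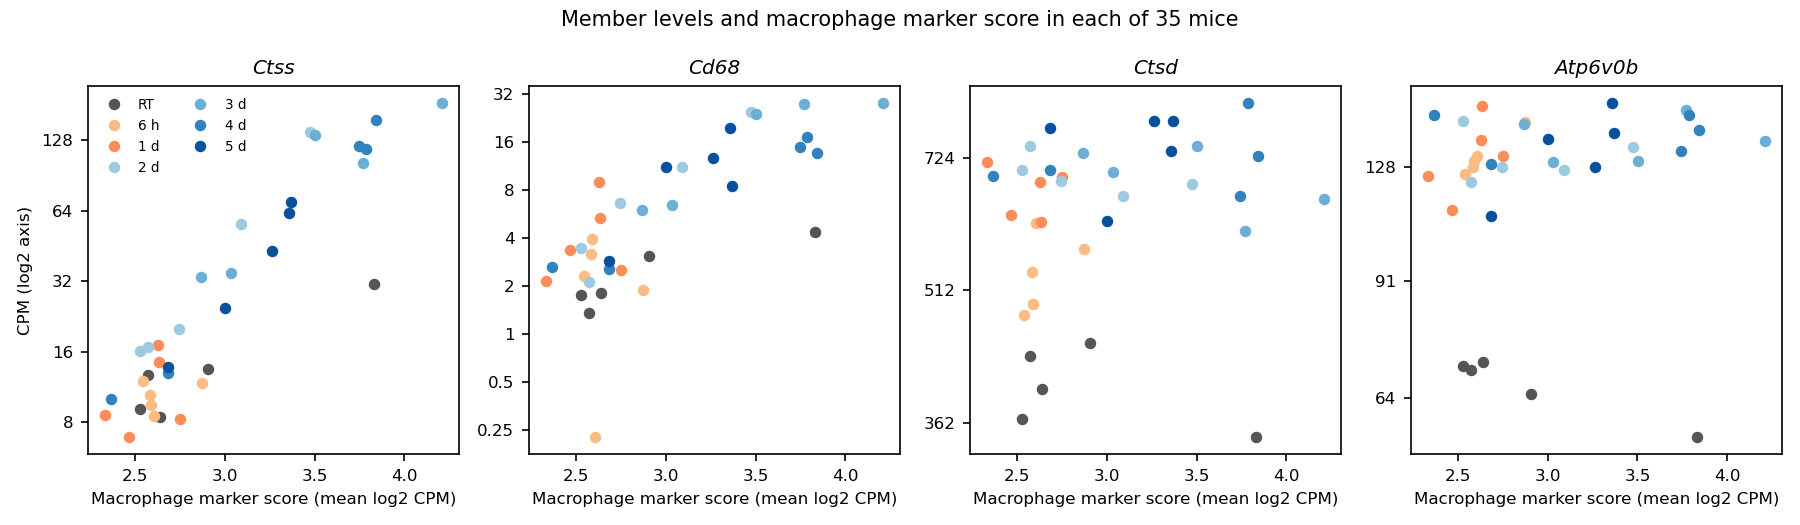
Level of Ctss, Cd68, Ctsd and Atp6v0b (CPM, log axis) against the macrophage marker score (mean log2 CPM of 16 markers) in each of 35 mice, coloured by duration. Ctss and Cd68 climb with the score within durations, whereas Ctsd and Atp6v0b separate RT from cold. The TMM-scaled slopes of Ctsd and Atp6v0b were -0.04 and 0.01 (Atp6v0b was called positive with library size only).

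The slopes were recomputed with other scores and mice. Without the 2 mice farthest from the median score (cold 3 days replicate 1 and cold 4 days replicate 2) 6 members were positive, and in the 20 mice of 2 to 5 days 11 were. With a score from 8 markers of lipid-associated macrophages 11 were positive and 1 negative. With the mitochondrial share of reads as a further term, 4 stayed positive, namely Ctss, Cd68, Ctsh and Ctsc. The slope of Ctsa was lost without any 1 of 20 of the 35 mice and that of Hexa without any 1 of 8. With DESeq2 8 were positive and 0 negative.

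Ctss, Cd68, Ctsh and Lgmn were called higher from 2 days on, and macrophage marker lists are given beside them. Of 13 general markers tested after 2 days 1 was higher and 1 lower, of 15 after 3 days 4 and 1, and of 13 after 5 days 3 and 2, with medians of -0.22, 0.46 and 0.07 on the log2 scale. The lipid-associated markers were higher in 3 of 4 after 2 days and 4 of 5 after 3 and 5 days, and the resident markers in 1 of 5, 4 of 6 and 3 of 6. The summed level of the 16 general markers was 160 to 315 CPM at RT and 205 to 448 CPM after 3 days, with none of the 16 at 0 in all mice of any group. The 8 lipid-associated macrophage markers summed to 38.4 to 52.5 CPM at RT and 80.5 to 414 after 3 days, and 6 of the 8 had a positive slope on the score. The 6 resident macrophage markers summed to 56.7 to 98.0 CPM at RT and 99.3 to 151 after 3 days, with 0 of 6 slopes called. Of other cell types, 4 of 6 stromal markers had a positive slope and 3 of 10 brown adipocyte markers a negative one, and 0 of 6 endothelial, 0 of 6 skeletal muscle and 0 of 5 erythroid markers were called. Of 7 dendritic cell markers 2 were tested, with 1 positive, and none of the 4 B cell markers passed the filter. The part of these markers in the levels of the members was not tested.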

How the data were processed

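iBAT of 35 mice was sequenced by the authors with QuantSeq 3′ FWD libraries, which read the 3′ end of transcripts. Per the submitters' processing notes, STAR 2.6.1d, HTSeq 0.11.2 and GRCm38 were used, and the deposited values are raw read counts per Ensembl gene, not normalized by the authors. The strand setting of the counting and its treatment of reads on several genes are not given in the sources used here.

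Counts were taken as deposited (35 columns, 55421 genes, 267 without a symbol) and scaled by TMM. Genes passing filterByExpr were tested with edgeR 4.0.16 (R 4.3.3) by the quasi-likelihood test (glmQLFit, glmQLFTest), separately for the 10 mice of each comparison, with Benjamini-Hochberg adjustment of the p-values over all tested genes (threshold 0.05). Each cold group was compared with RT, 4 days with 6 hours and 5 days with 3 days. For the slope, duration and the macrophage marker score (log2 CPM with a prior count of 2) entered 1 fit over 35 mice. The tests were checked on simulated counts. The alternatives were DESeq2 1.42.0, RLE size factors, library size only, no filter, 1 fit over all 7 groups, a replicate block and the omission of single mice. For the slope they also included another marker list, the 20 mice of 2 to 5 days, the mitochondrial share and leaving out 2 mice.

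All members were to be named, with fold changes for those called and, called or not, for Tfeb, Tfe3 and Mitf. Levels in every mouse were to be given for the called members with the largest fold change per role at 6 hours and 4 days, and those of Ctsb and Atp6ap1 were added after their values were seen. From other lists the 2 largest rises and falls among those called were named. Some results that this rule or a marker list would have named are not reported here. The members and lists were chosen with earlier results of these data known. Marker lists were macrophage (general, lipid-associated, resident), dendritic cell, brown adipocyte, stromal, endothelial, skeletal muscle, erythroid and B cell. Replicate numbers came from the sample titles, which do not tie equal numbers to a shared animal or day. The 70 pairs of mice within groups differed by more than counting noise (chi-square per degree of freedom 5.00 to 26.5), which only shows that none is a copy of another. Depth limits precision for genes of few CPM, where 1 CPM is about 4 to 6 reads. Promoter windows are RefSeq sequences of GRCm38.p6, with Python 3.11.15.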

Additional observations from a re-analysis of the deposited data

Results flagged for a closer look

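Levels of 35 members in 7 groups of 5 mice gave 245 sets, and in 12 of them 1 mouse lay so far from the other 4 that its gap exceeded 0.71 of the group's range, the 95% critical value of Dixon's test. Chance gives such a mouse in about 1 of 20 sets. The room temperature replicate 5 mouse was that mouse for Ctsc (16.6 CPM, others 6.98 to 8.52), Ctss (31.1 CPM, others 8.41 to 13.5) and Lamp2 (80.8 CPM, others 99.8 to 106). It also had the highest macrophage marker score of the controls. At RT, Ctsb was at 397 CPM in replicate 3 and Lamp1 at 455 CPM in replicate 1. After 6 hours, Psap was at 656 CPM in replicate 5. After 1 day, Mitf was at 6.64 CPM in replicate 3 and Atp6v1h at 34.6 CPM in replicate 4. After 2 days, Hexa (33.9 CPM) and Gusb (13.9 CPM) stood apart in replicate 1 and Asah1 (15.6 CPM) in replicate 2. After 5 days, Atp6v1b2 was at 46.8 CPM in replicate 2.

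Ctsb was lower than at RT after 6 hours and higher after 4 days, and the direct comparison of 4 days with 6 hours gave a log2 fold change of 0.72 ± 0.09 (edgeR adjusted p = 7.64e-06).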

How the results depend on the processing

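Of 167 fold changes and slopes of named members, 114 kept their direction and their side of the threshold in every alternative run. With library size only, 8 members were higher and 8 lower after 6 hours, 7 lower after 1 day, 11 higher after 2 days, 1 lower after 3 days and 2 lower after 5 days, and 22 slopes were positive. The lower count after 3 days was 1 with DESeq2, RLE size factors and no filter. That after 4 days was 1 with RLE size factors, 1 fit over all 7 groups and the replicate block, and that after 5 days 2 with no filter and 0 with all 7 groups. Between 5 and 3 days 3 members were lower with no filter and 0 with the replicate block. For the slope 1 member was negative with no filter and with the lipid-associated score, and 4 were positive with the mitochondrial share. The cause was not tested.

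Leaving out 1 mouse at a time gave 12 to 15 higher and 3 to 5 lower members after 6 hours, 14 and 1 to 4 after 1 day, 13 to 20 and 0 to 1 after 2 days, 20 to 25 and 0 to 2 after 3 days, 19 to 22 and 1 to 2 after 4 days, and 19 to 22 and 0 to 2 after 5 days. It gave 13 to 14 and 3 to 4 between 4 days and 6 hours, 0 and 0 to 1 between 5 and 3 days, and 6 to 10 positive and 0 to 1 negative slopes. The lower counts moved by more than 1.5 times after 6 hours without cold replicate 1 (5), after 1 day without cold replicate 3, 4 or 5 or RT replicate 2 or 4 (1 to 2), after 2 days without cold replicate 1 (1), after 3 days without RT replicate 1 or 3 or cold replicate 4 (1 to 2), after 4 days without any but RT replicate 3 and cold replicate 2 (1), and after 5 days without RT replicate 3 (2) or cold replicate 4 (0). Tfe3 turned its sign with library size only after 6 hours (-0.0803), 1 day (-0.120) and 2 days (-0.127), and ranged from -0.00732 to 0.181 after 1 day and -0.00648 to 0.206 after 2 days without single mice (negative without replicate 4 of the cold mice). It was called higher after 3 days with no filter and with the replicate block. Mitf after 3 days turned with library size only (-0.0922), the replicate block (-0.0469) and without RT replicate 2 (-0.119) or cold replicates 3 (-0.147) or 4 (-0.140), with a range to 0.247 without other mice.

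Equal replicate numbers did not pair the mice. Deviations of same-numbered mice correlated at -0.188 to 0.144, and at most 2 of 5 mice correlated best with their own number. With the replicate block 6 slopes were positive, and Glb1 (1 day), Ctsh, Ctsl, Ctss, Tfeb and Atp6ap1 (2 days), Ctsb (3 days), Lgmn, Atp6v1b2 and Atp6ap2 (4 days) and Atp6ap2 (5 days) were not called. Between 5 and 3 days, 108 of all genes were higher and 94 lower, against 320 and 239 with DESeq2, 346 and 385 with no filter, 160 and 119 with all 7 groups, 49 and 100 with library size only and 39 and 35 with the block, and the share of higher calls was 53.5%, or 32.9% with library size only.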

Other observations

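Brown adipocyte markers summed to 15637 to 19453 CPM at RT and 20068 to 26267 CPM after 6 hours, although of the 10 markers 2 were higher and 2 lower (median log2 fold change -0.07). Stromal markers summed to 554 to 774 CPM at RT and 527 to 962 CPM after 3 days.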
